A study of Mus musculus with 2 samples.

Results

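The circadian clock output genes examined here are Per1, Per2, Per3, Cry2, Nr1d1, Nr1d2, Dbp, Tef, Hlf and Bhlhe41, 10 genes taken by name, with earlier results of these data known. All 10 had at least 1 probe set that the platform annotation names for them alone. They had 23 such probe sets, and 18194 genes were represented in this way on the array. Transcripts were measured on Affymetrix MG430 arrays, on which each probe set, a group of short oligonucleotides, reports the transcripts it matches as a signal in array units. Of the 2 arrays, 1 was hybridized with skeletal muscle RNA of RXRγ mice and 1 with that of non-transgenic control mice, all of them C57BL6 females at 4 months of age. RXRγ mice overexpress RXRγ under the human α-actin promoter, which is active in skeletal muscle, and they belong to a single transgenic line, 4-3, and ate freely. The RNA was pooled within each genotype, from 3 animals according to the sample labels and from 5 according to the design text. Neither the hour at which the tissue was collected nor the muscle taken is given in the sources used here. Since each genotype has 1 array, no value below has an error, no test was possible, and the spread between animals is not known.

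The circadian clock is a transcriptional feedback loop that runs in nearly every cell. The activators CLOCK and BMAL1, the product of Arntl, bind E-boxes and switch on the Per and Cry genes, whose products return to the nucleus and inhibit them. The same activators drive the REV-ERB receptors encoded by Nr1d1 and Nr1d2, which repress Arntl in competition with the ROR receptors, and the PAR bZIP factors encoded by Dbp, Tef and Hlf, which pass the rhythm on to other genes through D-boxes. Bhlhe41 encodes DEC2, a repressor that binds E-boxes. In skeletal muscle the clock is known to time genes of fuel use. REV-ERB and ROR receptors are nuclear receptors like RXRγ, but they bind DNA without RXR as a partner.

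In RXRγ mice, the brightest of the clock output genes, Nr1d2, was lower, whereas Tef was nearly equal on the 2 arrays. Nr1d1 and Dbp were dimmer and also had less signal in RXRγ mice, where they were below the level that allows a fold. The other 6 genes were dim on both arrays. A gene was taken as measured when a probe set exceeded 250 on the brighter array, and as higher or lower at a log2 ratio of at least 0.4 in size, a 1.32-fold difference. Only Nr1d2 and Tef were measured by this rule. Of these 2, 1 was lower and none was higher, with a median log2 ratio of -0.42. Among all 3780 measured genes, 20.1% were lower and 16.8% were higher, and their median was -0.04. With 2 measured genes these counts describe Nr1d2 and Tef and not the group. In RNA from whole muscle, fewer cells of a type and less RNA per cell cannot be told apart.

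Nr1d2 encodes REV-ERBβ. Its bright probe set, 1416958_at, had a signal of 1835.8 on the control array and 1008.1 on the RXRγ array, 1.82-fold lower (log2 ratio -0.86). Of the 3780 measured genes, 206 had a lower log2 ratio, which is 5.45% of them. The second probe set of the gene, 1416959_at, had 132.3 on the control array and 78.1 on the RXRγ array. It was under 150 on both arrays, the level below which a signal was taken as too low for a fold, so it adds no second measurement of the size. More than 1 probe set exceeded 250 in 1213 genes. The range of log2 ratios within such a gene had a median of 0.20 and a 90th percentile of 0.54. These ranges come from the same 2 arrays and pools, so they hold no variation between animals or arrays. They give no error for the log2 ratio of Nr1d2.

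Nr1d1, which encodes the related receptor REV-ERBα, had 1 probe set. Its signal was 220.1 on the control array and 105.7 on the RXRγ array, under 150 in the latter, so Nr1d1 was at least 1.47-fold lower. Nr1d1 overlaps Thra, the gene of a thyroid hormone receptor, in the RefSeq annotation. Thra had 3 probe sets, with signals of 73.2, 135.3 and 170.3 on the control array and 63.9, 86.9 and 200.1 on the RXRγ array. Whether oligonucleotides of either gene lie in the shared stretch was not tested.

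Of the PAR bZIP genes, Dbp had less signal in RXRγ mice, Tef was nearly equal and Hlf was too dim for a fold. Dbp encodes the D-box binding protein, whose transcript is among the most strongly rhythmic in many tissues. Its probe set 1418174_at had 196.6 on the control array and 85.8 on the RXRγ array, and the other, 1438211_s_at, had 221.3 and 121.1. Both were above 150 in control mice only, and with the lower signals set to 150, Dbp was on average at least 1.39-fold lower (log2 ratio -0.48). The bound was 1.31-fold at the first probe set and 1.48-fold at the second. A name ending in _s_at marks a probe set that can match more than 1 transcript, and without it the log2 bound of -0.39 for Dbp is just short of 0.4. Dbp also overlaps Sphk2, a sphingosine kinase gene. Both Sphk2 probe sets were far under 150 on both arrays, at most at 83.5.

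Tef, the thyrotroph embryonic factor, had a signal of 681.9 on the control array and 697.0 on the RXRγ array at 1424175_at (log2 ratio 0.03). Its other probe sets were dim, with 10.7 and 96.5 on the control array and 12.1 and 105.7 on the RXRγ array. Of the measured genes, 56.6% had a lower log2 ratio than Tef. Hlf, the hepatic leukemia factor gene, had 44.6 and 71.4 on the control array and 35.2 and 26.9 on the RXRγ array, all too low for a fold.

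Nr1d1 and Dbp belong to the 1579 genes whose brightest probe set lay between 150 and 250. With signals under 150 set to 150, 7.66% of these genes were lower by at least 0.4 and 8.68% were higher. With the filter at 150 in place of 250, 4 of the 10 clock output genes were measured. Both with and without that floor, 3 of them were lower (Nr1d2, Nr1d1 and Dbp) and none was higher. Nr1d1 and Dbp exceeded 150 on the control array only, so once admitted they could only have a negative log2 ratio. The count of 3 is therefore no result about the group. Of all 5359 genes above 150 on the brighter array, 19.2% were lower and 18.3% higher without the floor, and 15.9% and 13.8% with it. This lower filter was planned, but its use with a floor was chosen after the values had been seen.

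**Figure D1:**
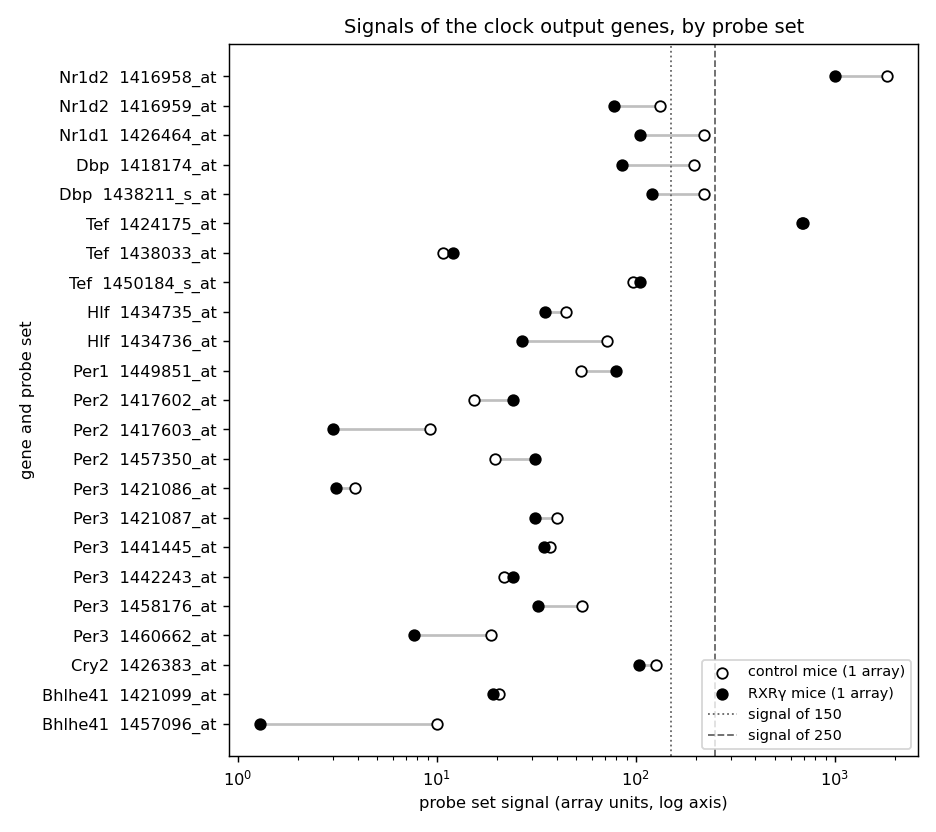
Signal of each of the 23 probe sets of the clock output genes on the array of control mice (open circles) and of RXRγ mice (filled circles); the horizontal axis is logarithmic, in array units. The dotted line marks 150 and the dashed line 250; only 1416958_at of Nr1d2 and 1424175_at of Tef lie beyond 250, and the probe sets of Nr1d1 and Dbp cross 150 between the arrays.

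The period genes, which encode the negative arm of the feedback loop, were dim on these arrays. Per1, which also responds rapidly to hormones and to cyclic AMP, had a signal of 53.2 on the control array and 79.8 on the RXRγ array at its only probe set. Per2 had 9.2, 15.4 and 19.6 on the control array and 3.0, 24.2 and 31.0 at the same probe sets on the RXRγ array. The 6 probe sets of Per3 ran from 3.9 to 53.8 on the control array and from 3.1 to 34.5 on the RXRγ array. Signals this low have no order, and no difference between the genotypes was detectable for the 3 genes.

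Cry2, which encodes a cryptochrome that inhibits CLOCK and BMAL1 together with PER proteins, was the brightest of the 6 dim genes. It had 126.4 on the control array and 104.0 on the RXRγ array. Bhlhe41 had 20.5 on the control array and 19.2 on the RXRγ array at 1 probe set, and at the other it was dimmer still, with 1.3 in RXRγ mice. In all, 15 probe sets belonged to the 6 genes Per1, Per2, Per3, Cry2, Hlf and Bhlhe41, with signals from 1.3 to 126.4. The arrays thus gave no fold for any of these 6 genes.

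The bases before the start sites of 4 genes are shown because Nr1d2, Nr1d1 and Dbp had less signal in RXRγ mice and Tef did not. They come from RefSeq, build GRCm38.p6, and run up to the outermost annotated start of each gene, which leaves 103 bases for Dbp and 250 for the others. Capitals mark matches to any of 5 motifs of the clock, searched on both strands. These were the E-box CACGTG, its variant CACGTT (the E′-box), the D-box as TTATGTAA or TTACGTAA, AGGTCA, which is the core of the site bound by REV-ERB and ROR receptors and by many other nuclear receptors, and the cyclic AMP response element TGACGTCA. No matches overlapped in the stretches shown, and the match in Nr1d1 is on the other strand, so it reads AACGTG here.
Nr1d2, chr14:18239107-18239356, minus strand: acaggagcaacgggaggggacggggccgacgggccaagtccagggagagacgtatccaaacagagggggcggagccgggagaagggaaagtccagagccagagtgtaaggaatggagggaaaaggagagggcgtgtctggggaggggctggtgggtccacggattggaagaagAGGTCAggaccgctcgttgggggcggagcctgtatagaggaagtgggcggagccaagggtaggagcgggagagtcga
Nr1d1, chr11:98775378-98775627, minus strand: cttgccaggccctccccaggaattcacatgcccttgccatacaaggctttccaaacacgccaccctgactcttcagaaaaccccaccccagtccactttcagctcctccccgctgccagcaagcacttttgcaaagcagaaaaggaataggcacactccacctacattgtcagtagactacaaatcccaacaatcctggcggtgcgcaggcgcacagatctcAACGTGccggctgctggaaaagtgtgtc
Dbp, chr7:45704997-45705099, plus strand: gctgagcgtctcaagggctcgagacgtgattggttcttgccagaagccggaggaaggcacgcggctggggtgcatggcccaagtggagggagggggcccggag
Tef, chr15:81802423-81802672, plus strand: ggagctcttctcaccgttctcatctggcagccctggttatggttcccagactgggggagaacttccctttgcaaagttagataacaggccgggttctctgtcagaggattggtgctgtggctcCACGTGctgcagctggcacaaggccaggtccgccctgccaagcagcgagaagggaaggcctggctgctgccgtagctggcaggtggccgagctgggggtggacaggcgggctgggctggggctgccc

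The same 250 bases before a start site were searched in all 32851 RefSeq windows, 11 of which belonged to 9 of the clock output genes. Per2 had no window and was not searched. Nr1d2 had an AGGTCA site 72 to 77 bases before its start, Nr1d1 an E′-box at 23 to 28 bases and Tef an E-box at 122 to 127 bases before the first of its 2 annotated starts, while Dbp had none of the motifs in its window. The E-box was found in 4 of the 11 windows, which belonged to 3 genes (Tef, Per1 and Bhlhe41), and in 6.02% of all windows. The E′-box was found in 2 (Nr1d1 and Cry2) against 3.85% of all windows, and the AGGTCA site in 2 (Nr1d2 and Per1) against 14.0%. The D-box was present only in the window of Per3, at 2 places, against 0.931% of all windows. The cyclic AMP response element was present only in that of Hlf, against 1.55%. The 3 genes with less signal, grouped by their values, shared none of these motifs in this short window. For Dbp, only 103 bases of the window lie before the outermost annotated start of the gene. Common regulation of these genes was not tested. Guanine and cytosine made up a median of 63.6% of the 11 windows and 52.4% of all windows. A match is a description of the letters and not a bound site.

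**Figure D2:**
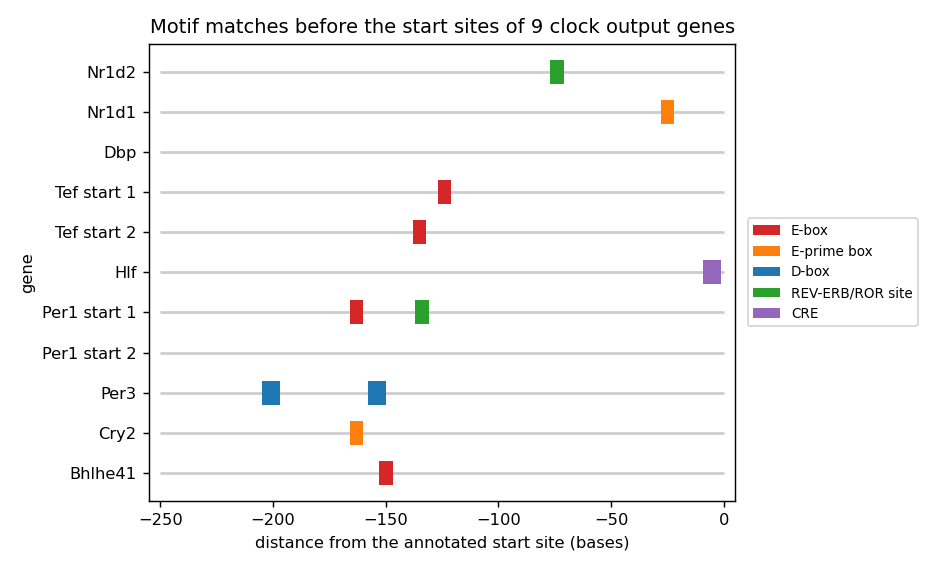
Matches to 5 clock motifs in the 250 bases before the annotated start sites of 9 clock output genes, with the distance from the start site in bases on the horizontal axis and 1 line per start site. Colours stand for the motifs; the E-box occurs before both starts of Tef, the AGGTCA site (REV-ERB/ROR site) before Nr1d2, and no match lies before Dbp.

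Arntl, Clock and Nfil3, which act against or upstream of the clock output genes, each had a log2 ratio within 0.4. Arntl, which encodes BMAL1 and is repressed by REV-ERB receptors, had a signal of 283.9 on the control array and 321.5 on the RXRγ array (log2 ratio 0.18). Clock, the gene of its partner, had 305.1 and 266.1 (log2 ratio -0.20) at its only probe set above 250. Nfil3, which encodes the D-box repressor E4BP4 that opposes DBP and TEF, had 282.5 and 293.2 (log2 ratio 0.05). Cry1, the other cryptochrome gene, had 127.5 and 138.3 and was too dim for a fold, as was Npas2, a relative of Clock, at 40.8 or less.

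A pair of other loop genes were lower by about as much as Nr1d2. Rora encodes RORα, which activates at the elements where REV-ERB represses. It was lower at each of its 5 probe sets above 250, with a mean signal of 571.8 on the control array and 321.1 on the RXRγ array and log2 ratios from -1.01 to -0.50 (mean -0.82). Bhlhe40 encodes DEC1, the paralog of DEC2. Its signal was 679.6 on the control array and 383.6 on the RXRγ array, 1.77-fold lower (log2 ratio -0.83). Of the genes whose products act on the same element, the repressor genes Nr1d2 and Nr1d1 (at least 1.47-fold) and the activator gene Rora were lower. The log2 ratio of Arntl, their common target, was within 0.4. The part of these receptors in the value of Arntl was not tested.

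**Figure D3:**
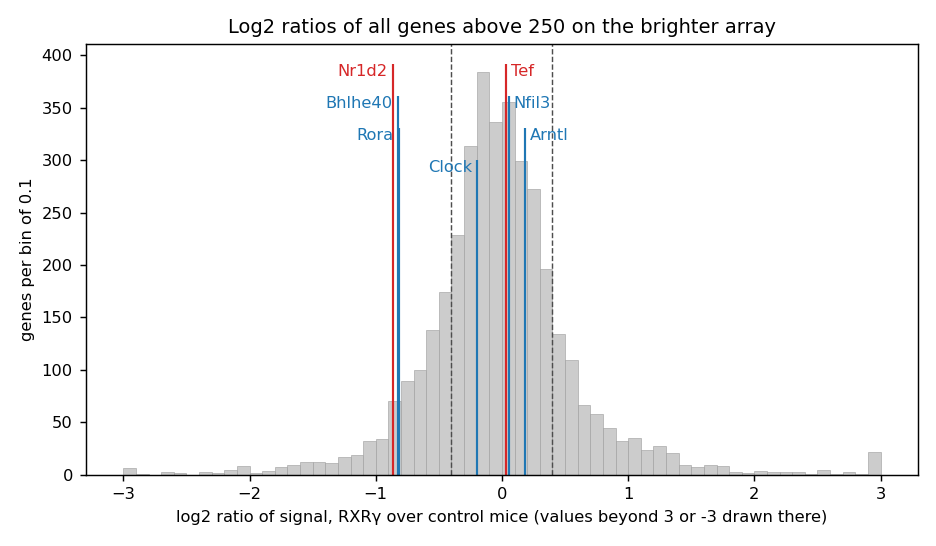
Number of measured genes per bin of 0.1 of the log2 ratio, RXRγ array over control array, for the 3780 genes above 250 on the brighter array. Red lines mark the clock output genes Nr1d2 (-0.86) and Tef (0.03), blue lines other genes of the loop, and dashed lines a log2 ratio of 0.4 in either direction; Nr1d2, Bhlhe40 and Rora lie together on the lower side, and Clock, Nfil3, Arntl and Tef lie between the dashed lines.

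Over 4 lists of further clock genes, 17 of 42 genes were measured, 6 were lower and none was higher, with a median log2 ratio of -0.26. The corresponding shares of all measured genes are the 20.1% and 16.8% given above. Of 11 genes of kinases and ubiquitin ligases that act on clock proteins, 5 were measured and 1 was lower. It was Prkaa2, a catalytic subunit of the AMP-activated kinase, which is known to phosphorylate cryptochrome, with a mean signal of 2209.8 on the control array and 1032.3 on the RXRγ array. The casein kinase genes Csnk1d and Csnk1a1, whose products phosphorylate PER proteins, had log2 ratios of 0.19 and -0.26. The 2 probe sets of Csnk1d above 250 disagreed, at -0.25 and 0.63.

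Of 19 other genes with a known daily rhythm, 7 were measured. Of these, 3 were lower and none was higher, beside 20.1% and 16.8% of all measured genes. The lower ones were the fuel genes Ucp3, Pdk4 and Pfkfb3, of which Ucp3 passed 250 on the control array only. Ucp3, a mitochondrial uncoupling protein, had a mean signal of 451.4 on the control array and was under 150 on the RXRγ array (88.5), a log2 ratio of -1.59 or lower. Pdk4, the pyruvate dehydrogenase kinase of fasting, was 2.96-fold lower (5361.9 on the control array and 1811.0 on the RXRγ array), and Pfkfb3 was 2.04-fold lower. All 3 also respond to fuel supply, so they are not markers of the clock alone. Usp2, Nampt and Klf9, which cycle in many tissues, had log2 ratios of -0.09, 0.14 and -0.30.

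Glucocorticoids and the stimuli that induce immediate early genes are known to act on Per1. Of 12 genes that respond to glucocorticoids, 10 were measured, 5 were lower and 2 were higher, beside 20.1% and 16.8% of all measured genes. Fkbp5, an immunophilin, had 315.5 on the control array and 113.3 on the RXRγ array and was at least 2.10-fold lower, and the ubiquitin ligase genes Fbxo32 and Trim63 were 4.54-fold and 2.46-fold lower, although Fbxo32 varied over its 3 probe sets, with log2 ratios between -2.98 and -0.67. The metallothionein gene Mt1 was higher, with 369.0 on the control array and 874.9 on the RXRγ array. Of 12 immediate early genes, 5 were measured, of which 4 were higher and 0 lower, beside the same 16.8% and 20.1%. Egr1, a growth response factor, had 416.4 on the control array and 1015.6 on the RXRγ array. Atf3 had 71.8 on the control array and 360.6 on the RXRγ array and was at least 2.40-fold higher. Jun and Nr4a1 had log2 ratios of 0.81 and 0.51. Atf3 passed the filter of 250 on the RXRγ array only, and Fkbp5 passed it on the control array only. Neither of them could therefore have been counted in the other direction. The part of either stimulus in the values of the clock output genes was not tested.

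**Figure D4:**
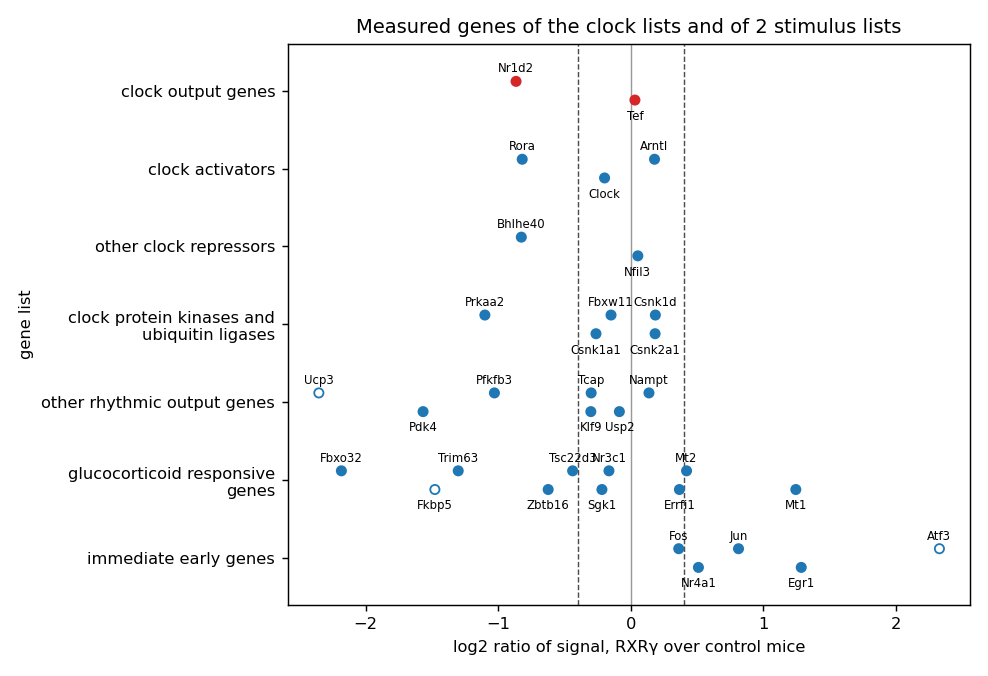
Log2 ratio (RXRγ array over control array) of the measured genes of the clock output genes (red) and of 6 further lists (blue), 1 point per gene, with vertical offsets only for legibility. Open points had a signal under 150 on 1 array, so that their ratio is not a measured fold, and dashed lines mark 0.4 in either direction; Nr1d2, Rora and Bhlhe40 lie near -0.8, and 4 of the 5 immediate early genes lie beyond 0.4 on the higher side.

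The labels were checked against the transgene and against markers of tissue. Rxrg had a signal of 334.5 on the control array and 9172.1 on the RXRγ array. All 12 skeletal muscle markers were measured, with a summed signal of 150706.9 on the control array and 127028.1 on the RXRγ array. Of these, 4 were lower and 1, Actn2, was higher, beside 20.1% and 16.8% of all measured genes. The lower genes included the myosin genes Myh7 of slow fibres (log2 ratio -2.53) and Myh2 of fast oxidative fibres (log2 ratio -0.81). The others were the myosin gene Myh4 (-0.415) and Ckm (-0.75). Their 2 probe sets differed, with log2 ratios of -0.77 and -0.06 for Myh4 and -1.39 and -0.11 for Ckm. Of 7 adipocyte markers, 5 had a probe set and 3 were measured, none beyond 0.4, with sums of 8474.8 and 9540.4 and Adipoq at 1010.4 and 1139.5. None of 4 endothelial markers was measured, and their sums were 655.9 and 507.7. Of 6 immune markers, 5 had a probe set and only Lyz2 was measured (464.4 and 548.6), with sums of 732.9 and 877.8. Of 4 nerve markers, 2 had a probe set and only Mbp was measured, with sums of 839.0 and 897.7. The sums of these 3 lists rest largely on dim signals or on 1 gene, so they do not measure cell content. Red blood cell markers summed to 44.4 and 28.2 and satellite cell markers to 48.8 and 110.0, but each of their probe sets was under 150 on both arrays, so these sums give no fold. No marker probe set was at 0. The part of fibre type in the value of Nr1d2 was not tested.

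The values of Nr1d2 and Tef changed little under the settings that could change them. Under other scalings of the arrays, a pseudocount and no filter, the log2 ratio of Nr1d2 ran from -0.96 to -0.80. That of Tef ran from -0.07 to 0.11. Each gene has a single probe set above 150, so the floor, the other filters and the choices of probe sets could not change its value. None of these settings measures the spread between arrays or animals. Scaling both arrays to the same median shifted the median of all measured genes from -0.04 to -0.15, with 495 genes higher and 1002 lower in place of 636 and 760. Relative to that median, the log2 ratio of Nr1d2 was -0.82 as reported and -0.81 after the scaling. The bound of Nr1d1 stayed between -0.60 and -0.55 under the 3 other scalings, and that of Dbp between -0.53 and -0.47.

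**Figure D5:**
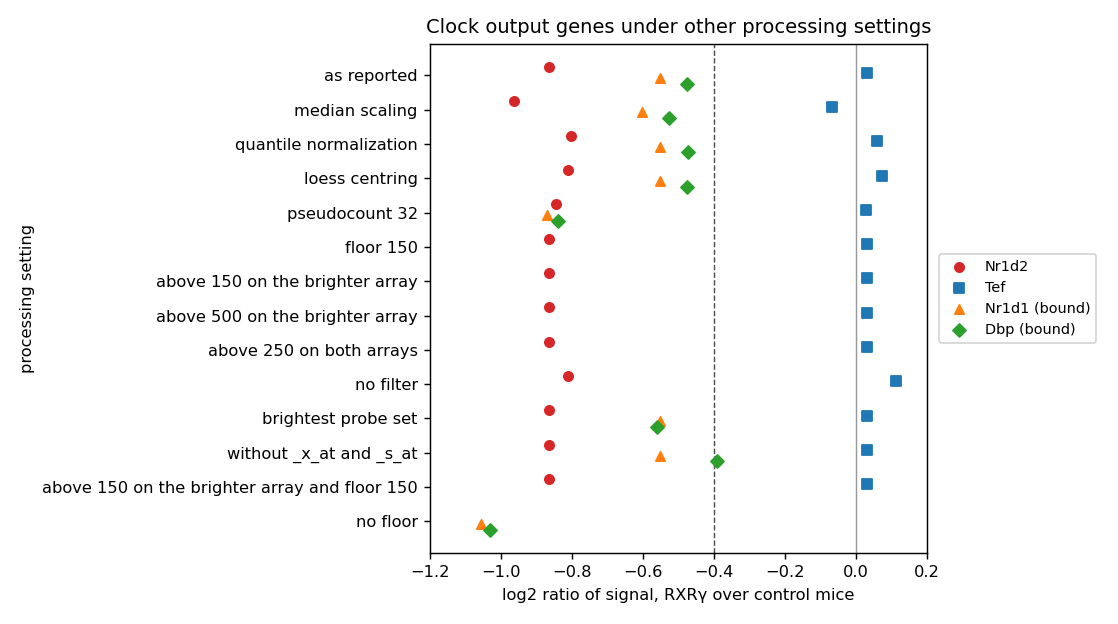
Log2 ratio (RXRγ array over control array) of Nr1d2, Tef, Nr1d1 and Dbp under each processing setting, 1 row per setting. For Nr1d1 and Dbp signals under 150 were set to 150, except in the rows with a pseudocount or without a floor, and settings that do not apply to them show no point; the dashed line marks -0.4, and only Dbp without the _s_at probe set lies just inside it.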

How the data were processed

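Each array was hybridized with biotin-labelled RNA pooled within a genotype. The deposited values are linear intensity signals per probe set that the authors made with Affymetrix Gene Chip software. Without the 2% of probe sets at each end, their mean was 100.0 on both arrays. Present calls were not used here, and array number limits precision. No column of per-sample values was left unused. Gene names came from the platform annotation, which gives 1 gene for 34958 of 45101. A gene's log2 ratio averages its probe sets with over 250 on the brighter array, without a pseudocount. A fold against signals under 150 is a bound, with those signals set to 150. The members and lists were chosen with earlier results of these data known. The genes named are the 10 members, up to 4 called genes per further list with the largest change, and 6 partners of the loop (Arntl, Clock, Npas2, Cry1, Nfil3 and Bhlhe40); others were named after their values were seen. The steps were tested on simulated data. Alternatives changed the scaling (median, quantile, loess with a span of 0.3), a pseudocount of 32, the floor, the filter, the probe sets and the threshold. Protein sequences were not analysed here. Python 3.11.15, pandas 2.3.3, numpy 2.4.6, scipy 1.17.1, statsmodels 0.14.6 and matplotlib 3.10.9 were used.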

Additional observations from a re-analysis of the deposited data

How the results depend on the processing

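The count of clock output genes lower in RXRγ mice was 1 as reported. It was 3 with the filter at 150, with or without a floor of 150 (the former chosen after seeing the data). Of these 3, Nr1d1 and Dbp exceeded 150 on the control array only. The count was 6 of 10 when nothing was filtered, beside 4114 of all 18194 genes, and 0 with a log2 threshold of 1. The count of higher genes, 0 as reported, was 1 without a filter. Of the further clock genes, 6 were lower and 0 higher as reported. Without a filter these were 11 and 9, and with the filter at 150 there were 2 higher. More genes enter under these filters, 10 clock output genes in place of 2 without one, at signals too low for a fold. The median log2 ratio of the measured clock output genes, -0.42 as reported, ran from -0.95 with a signal above 150 to -0.37 with loess centring. Over all genes, 636 were higher and 760 lower of 3780 as reported, and 191 and 155 at a threshold of 1. With a signal above 250 on both arrays these were 371 and 501 of 3055 genes. They were 340 and 438 of 2067 above 500, 982 and 1028 of 5359 above 150, and 5208 and 4114 of 18194 without a filter. The genes followed singly were Nr1d2, Tef, Nr1d1, Dbp, Arntl, Clock, Nfil3, Rora and Bhlhe40; none of their folds moved by 1.5 times or more, and Nr1d2, Nr1d1, Dbp, Rora and Bhlhe40 stayed lower in sign. Except for Rora and Dbp, each of these genes has a single probe set above 150, so most filters and choices of probe sets could not change its value. Genes of the other lists were not followed singly. Arntl passed 0.4 in a single setting, without a filter (0.68), where a probe set at 14.0 and 31.8 enters. No paired analysis was possible because each genotype has 1 array. Depth in the sense of signal limits 6 of the 10 genes, which stayed under 150, and it leaves only a bound for Nr1d1 and Dbp.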
